A study of Homo sapiens with 4 samples.

Results

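The region described here is the stretch of chromosome 8 that holds MYC, PVT1 and the distal enhancers of MYC, from 500 kb before the MYC gene to 2.5 Mb past its end. In hg38 it runs from 127235434 to 130242951, which is 3.01 Mb. Its members are the GATA2 ChIP-seq peaks that share at least 1 base with it, chosen by position alone and not by any measured value. It holds 80 of the 31777 peaks of asynchronous cells and 5 of the 1648 peaks of mitotic cells.

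The study mapped GATA2 by ChIP-seq, in which an antibody (sc-9008) pulls down the DNA that a protein occupies and the sequenced reads pile up into peaks. The cells were K562, an established human chronic myeloid leukaemia line, and the GATA2 measured was their own. The asynchronous cells were fixed with disuccinimidyl glutarate and then formaldehyde. The mitotic cells were arrested with nocodazole, which blocks the spindle, fixed with the same agents and a stronger glycine quench, stained for the mitotic phospho-epitope MPM-2 and sorted by flow cytometry in several rounds. The sorted cells held less than 10% asynchronous cells, and the rounds were pooled before the immunoprecipitation. Each condition therefore has 1 GATA2 library, no difference between conditions has a replicate check or a test, and mitosis cannot be told apart from nocodazole or from the sort. The lists give the start and end of each peak and no height, so width is the only measure of a peak's size. Read depth was not analysed here, and a site without a mitotic peak may lie under the limit of detection. Intervals on shares of peaks are 95% exact binomial (Clopper-Pearson) intervals and cover counting error only.

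MYC encodes a basic helix-loop-helix leucine zipper factor that pairs with MAX, binds E-boxes and drives growth and proliferation. PVT1 is a long non-coding RNA (lncRNA) gene next to MYC that hosts several microRNAs and holds enhancers in its introns. In blood cells, MYC also depends on enhancers far downstream, in the gene-poor stretch around the lncRNA gene CCDC26. GATA2 is a zinc finger factor of blood stem and progenitor cells that binds GATA sites, and mitotic bookmarking means that a factor stays on some of its sites while chromosomes are condensed.

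In asynchronous cells GATA2 peaks were found in all but 7 of the 30 bins of 100 kb along this region, and in mitotic cells at 5 sites only. None of these 5 sites was at the MYC gene, which held only 2 of the asynchronous peaks. A pair lay in introns of the canonical PVT1 transcript. Another pair lay close together far downstream, beyond the 5' end of CCDC26, and the remaining site lay 117 kb upstream of MYC. All 5 mitotic peaks lay wholly inside an asynchronous peak. Of the whole mitotic list, 97.5% met the looser rule of any overlap, by 1 base or more, which all 5 here met too. How much of that list lay wholly inside is not given here, so nothing is read from the stricter rule. An asynchronous peak is called bookmarked below where it shares at least 1 base with a mitotic peak, and asynchronous only otherwise. The 5 bookmarked peaks were 6.25% of the 80 (95% interval 2.06% to 14.0%), against a background of 5.04% of all asynchronous peaks. Outside the region the share was 5.03% (4.79% to 5.28%), and the difference of 1.22 percentage points had an interval of -2.34 to 8.78. On the rest of chromosome 8 it was 6.17% (83 of 1345 peaks). The share bookmarked in the region was thus near the background.

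**Figure D1:**
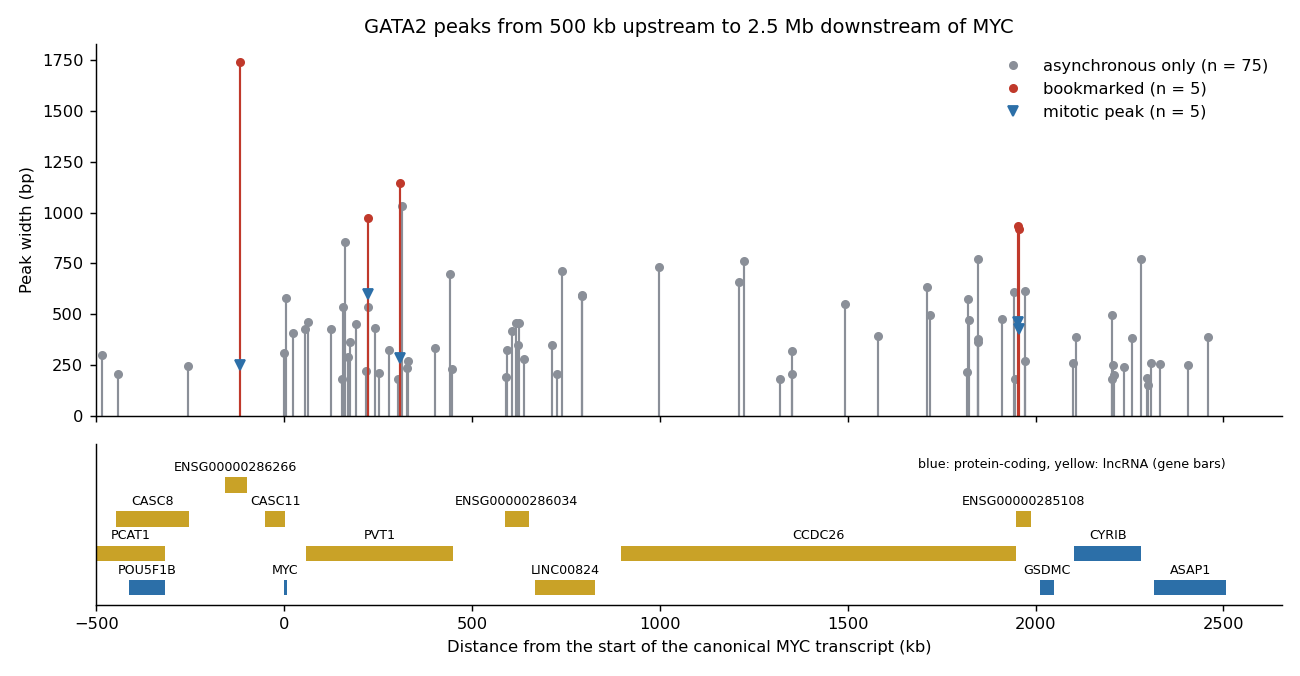
Width of each GATA2 peak in bp (top) against its distance in kb from the start of the canonical MYC transcript, with grey stems for the 75 asynchronous-only peaks, red stems for the 5 bookmarked peaks and blue triangles for the 5 mitotic peaks, and the genes of the region (bottom, blue for protein-coding, yellow for lncRNA, genes that cross an end of the region being cut there). The bookmarked peaks stand at -117, 224, 309, 1953 and 1957 kb, and are 917 to 1743 bp wide.

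MYC itself (ENSG00000136997, plus strand, 127735434 to 127742951) held 2 asynchronous peaks and no mitotic peak. The first ran from 127735409 to 127735718 and was 310 bp wide. It covered the start of a non-canonical MYC transcript, had its midpoint at -0.67 kb from the canonical start (127736231), and also overlapped CASC11, an antisense lncRNA gene. It was the only peak of the region that held a transcription start site (TSS) of a protein-coding gene. The other ran from 127741821 to 127742398, was 578 bp wide, and lay in the 3' untranslated part of the third and last MYC exon. Neither peak at MYC was bookmarked, a share of 0 whose interval reached 84.2% and so included the background of 5.04%. Both held matches to WGATAR, the GATA consensus in which W stands for A or T and R for A or G, with 2 matches in the peak at the start and 5 in the peak at the end of the gene. The 51.6 kb between MYC and PVT1 held 2 more asynchronous-only peaks, of 405 and 429 bp.

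Upstream of MYC, 500 kb held 4 asynchronous peaks, or 8 per Mb. These were narrow at -484, -443 and -256 kb, with widths of 300, 206 and 245 bp, in the lncRNA genes PCAT1 and CASC8. The peak at -117 kb, from 127618197 to 127619939, was the widest of all 80 at 1743 bp and was bookmarked. It lay in intron 2 of the lncRNA gene ENSG00000286266, and no other peak lay within 115 kb of it, the nearest being the peak at the MYC start. Its mitotic peak ran from 127618460 to 127618711, was 252 bp wide and covered 14.5% of the asynchronous peak. The mitotic peak was off centre, with an offset of -482.5 bp between its midpoint and that of the asynchronous peak, and it held 2 of the 7 WGATAR matches. This was the least central of the 5 mitotic peaks.

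PVT1 (ENSG00000249859, plus strand, 127794526 to 128187101) held 22 asynchronous peaks, which was 27.5% of the region's peaks and 56.0 per Mb over its 393 kb. Their widths ran from 180 to 1144 bp with a median of 395.5 bp, and 7 of them were wider than 518 bp, the upper quartile of all asynchronous peaks. All 22 lay in introns of the canonical transcript, which has 11 exons, and 5 overlapped an exon of at least 1 of the 190 annotated PVT1 transcripts. These 5 were the peaks at 124, 176, 304, 309 and 313 kb, with widths of 427, 364, 183, 1144 and 1033 bp. The peak at 309 kb was the only bookmarked peak among them.

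The 2 bookmarked peaks of PVT1 were 9.09% of the 22 (1.12% to 29.2%). The first, in intron 3 at 224 kb, ran from 127960124 to 127961097 and was 974 bp wide. It covered the whole of MIR1205 (127960633 to 127960695), a microRNA gene within PVT1. Its mitotic peak, from 127960245 to 127960843, was the widest of the region's 5 at 599 bp, wider than 95.9% of all mitotic peaks, and covered 61.5% of the asynchronous peak and 7 of its 8 WGATAR matches. An asynchronous-only peak of 535 bp lay 566 bp away. The second, in intron 4 at 309 kb, ran from 128044434 to 128045577 and was 1144 bp wide. Its mitotic peak, from 128044955 to 128045237, was 283 bp wide and covered 24.7% of it, with 4 of its 8 WGATAR matches. This mitotic peak also overlapped an exon and held the start of a non-canonical PVT1 transcript. The neighbour at 313 kb, 2809 bp on from the asynchronous peak, was 1033 bp wide and covered MIR1207, another microRNA gene in PVT1. It was not bookmarked although it held 6 WGATAR matches.

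Between PVT1 and GSDMC, the next protein-coding gene, 1561 kb held 35 asynchronous peaks, or 22.4 per Mb. Their median width was 458 bp, and 14 of them were wider than 518 bp. CCDC26 (ENSG00000229140, minus strand, 128634199 to 129683770), a lncRNA gene known from myeloid leukaemia, held 19 of them over 1050 kb, with widths of 182 to 773 bp and 8 over 518 bp. None of the 19 was bookmarked, a share whose interval reached 17.6% and so included the background of 5.04%. The lncRNA genes ENSG00000286034 and LINC00824, which lie between PVT1 and CCDC26, held 7 and 5 peaks of up to 458 and 714 bp. None of these was bookmarked, which at such counts allows shares of up to 41.0% and 52.2%.

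The 2 bookmarked peaks of this stretch lay 5127 and 8676 bp upstream of the nearest CCDC26 start, in the last of 8 exons of the lncRNA gene ENSG00000285108, and were 2613 bp apart edge to edge. The first, at 1953 kb, ran from 129688897 to 129689832, 936 bp. Its mitotic peak ran from 129689228 to 129689689, was 462 bp wide and covered 49.4% of it, with 2 of its 4 WGATAR matches. The second, at 1957 kb, ran from 129692446 to 129693362, 917 bp. Its mitotic peak ran from 129692762 to 129693190, was 429 bp wide and covered 46.8% of it, with 5 of its 6 WGATAR matches. These 2 were the only bookmarked peaks of the region whose nearest neighbour was bookmarked too. They were 5.71% of the 35 peaks between PVT1 and GSDMC (0.70% to 19.2%).

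From GSDMC to the end of the region, 495 kb held 15 asynchronous peaks and no mitotic peak. The interval of this share of 0 reached 21.8%. These peaks were mostly narrow, with a median of 253 bp, and only 1 exceeded 518 bp. GSDMC, a member of the gasdermin family of pore-forming proteins, was overlapped by no peak. CYRIB, whose product binds RAC1 and restrains actin remodelling, held 8, and ASAP1, which encodes a GTPase-activating protein for ARF proteins, held 3 in the part of it inside the region. POU5F1B, a retrocopy of POU5F1 upstream of MYC, held none. The widest of the CYRIB peaks was 771 bp, in intron 1 and 333 bp from a CYRIB TSS.

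Protein-coding genes were overlapped by 13 of the 80 peaks and lncRNA genes by 67, and 5 peaks overlapped no gene. All 5 bookmarked peaks overlapped a lncRNA gene and none a protein-coding gene. Most peaks of the region lay far from the starts of protein-coding genes, of which it holds only 5. The median distance to such a TSS was 181 kb against 14.2 kb for the other peaks. Its maximum in the region was 994 kb. Only 5 of 80 (6.25%) had one at 1 kb or less, against 11.5% of the other peaks. The interval of 5 in 80, 2.06% to 14.0%, included this 11.5%. A TSS of a gene of any type lay inside 7 of the peaks. Of these 7, 2 were bookmarked, and 1 held the TSS of a protein-coding gene. The 2 were the bookmarked peaks of PVT1, 974 and 1144 bp wide. Over all asynchronous peaks 5.04% were bookmarked, and at 2 of 7 nothing is read from the difference. When each peak was given to the protein-coding gene of the nearest TSS, MYC received 40 of the 80, including the 3 bookmarked peaks at -117, 224 and 309 kb. Only 5 of the 9978 genes nearest to any asynchronous peak had more than these 40. This rank reflects the rule, as MYC is the only protein-coding gene between POU5F1B and GSDMC. Among genes of every type, MYC was nearest to 3 asynchronous peaks and 0 mitotic peaks. GSDMC received 22 peaks, including the bookmarked pair at 1953 and 1957 kb, although no peak overlapped it. CYRIB received 12, and ASAP1 and POU5F1B 3 each from this region.

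**Figure D2:**
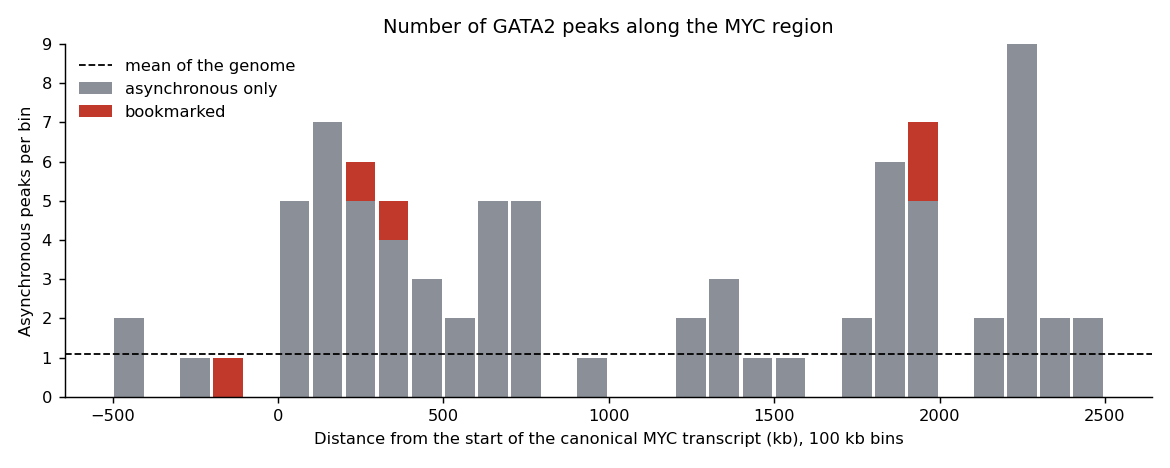
Number of asynchronous peaks in consecutive bins of 100 kb along the region, against distance in kb from the canonical MYC start, with asynchronous-only peaks in grey, bookmarked peaks in red and the genome's mean per 100 kb as a dashed line. The bins hold 0 to 9 peaks, 7 of the 30 bins hold none, and the highest bin, over CYRIB, holds no bookmarked peak.

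Peaks were denser in the region than in the genome. It held 26.6 asynchronous peaks per Mb, against 10.8 per Mb over the genome without runs of N and 9.84 on chromosome 8. Mitotic peaks numbered 1.66 per Mb, against 0.561 over the genome. The region was set beside 967 windows of the same length laid end to end over the other parts of the genome, which held a median of 28 asynchronous peaks with quartiles of 13 and 47. Fewer than 80 were found in 926 windows (95.8%), and the fullest window held 118. Fewer than 5 mitotic peaks were found in 879 windows (90.9%), with a median of 1 and a maximum of 13. Both counts were thus in the upper part of the range and below the highest values.

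Spans of the same layout around other genes, taken by the strand of each gene, gave other counts. The span around MYCL, a MYC paralogue, held 79 asynchronous and 2 mitotic peaks, with 2.53% bookmarked (0.308% to 8.85%). The span around MYCN held 29 and 1, and that around GATA2 36 and 1. The number of asynchronous peaks around MYC was therefore close to that around MYCL and above those around MYCN and GATA2, as a description with no test.

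**Figure D3:**
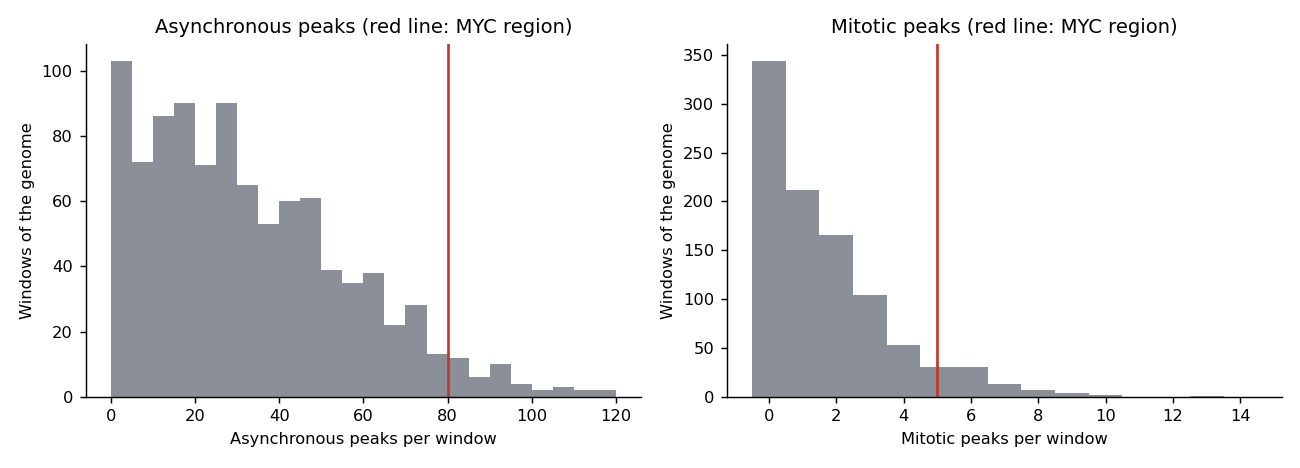
Histograms of the number of asynchronous (left) and mitotic (right) GATA2 peaks in 3.01 Mb windows of the genome, with a red line at the count of the MYC region. The line stands at 80 asynchronous peaks, where the median window holds 28, and at 5 mitotic peaks, where the median window holds 1.

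Within the region, peaks came in groups and gaps. The median gap between neighbouring peaks was 14.3 kb, against 23.2 kb in the whole list. When neighbours across gaps of up to 11.7 kb were joined, the next longer gap being 12.9 kb, 21 groups held 56 of the peaks and 24 peaks stood alone. The group with most peaks had 5, lay in PVT1 from 154 to 176 kb, spanned 22.2 kb and held no bookmarked peak. A further 3 groups had 4 peaks each. These were in ENSG00000286034 from 605 to 626 kb, around the 5' end of CCDC26 from 1942 to 1957 kb, and in CYRIB from 2203 to 2210 kb. Of these 4 groups of 4 or 5 peaks, the group at the 5' end of CCDC26 held the bookmarked pair described above and the other 3 held none. The bookmarked peaks of PVT1 each lay in a group of 3 peaks, from 217 to 225 kb and from 304 to 313 kb. The longest stretches without a peak were 213 kb and 203 kb, on either side of a lone peak in CCDC26 at 997 kb.

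The outermost peaks inside it lay at -484 kb (127252134 to 127252433, 300 bp) and 2458 kb (130193802 to 130194188, 387 bp). The nearest peaks outside it lay at -521 kb (127215378 to 127215573, 196 bp) and 2548 kb (130284511 to 130284835, 325 bp), and none of these 4 was bookmarked. The nearest mitotic peaks outside the region lay at -2305 kb and 6984 kb.

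The width of the region's asynchronous peaks had a median of 386 bp (95% interval 320 to 455), against 378 bp (375 to 381) for all others, and its quartiles were 251 and 574 bp against 267 and 518 bp. In the region 24 peaks (30%) were narrower than 268 bp and 24 were wider than 518 bp, the cuts that hold the narrowest and widest 25% of the whole list. The bookmarked peaks were among the widest. They measured 917, 936, 974, 1144 and 1743 bp, and made up all but 1 of the 6 widest peaks. The 75 asynchronous-only peaks ran from 151 to 1033 bp with a median of 364 bp, so that only the 1033 bp peak at MIR1207 reached into the range of the bookmarked ones.

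All 5 bookmarked peaks were among the 24 peaks wider than 518 bp, of which they were 20.8% (7.13% to 42.2%). Of the other peaks in this width class 16.2% were bookmarked (15.4% to 17.0%). None of the region's peaks in the 3 narrower classes was bookmarked, and elsewhere 0.189%, 0.629% and 3.19% were bookmarked in these classes, from the narrowest upwards. At 917 bp or more, 5 of 6 peaks of the region were bookmarked (83.3%, 35.9% to 99.6%), against 265 of 762 elsewhere (34.8%, 31.4% to 38.3%). This width is that of the narrowest bookmarked peak of the region, so that all 5 are counted by construction and nothing is read from the difference. Outside the region, too, bookmarked peaks were wider than asynchronous-only peaks, with medians of 673 and 367 bp.

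The next widest peaks after these 6 were not bookmarked. They were 856 bp at 163 kb in PVT1 intron 3, 773 bp at 1846 kb in CCDC26, the 771 bp peak of CYRIB and 762 bp at 1225 kb in CCDC26. The 773 bp peak held no WGATAR match, whereas the others held 3 to 6.

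**Figure D4:**
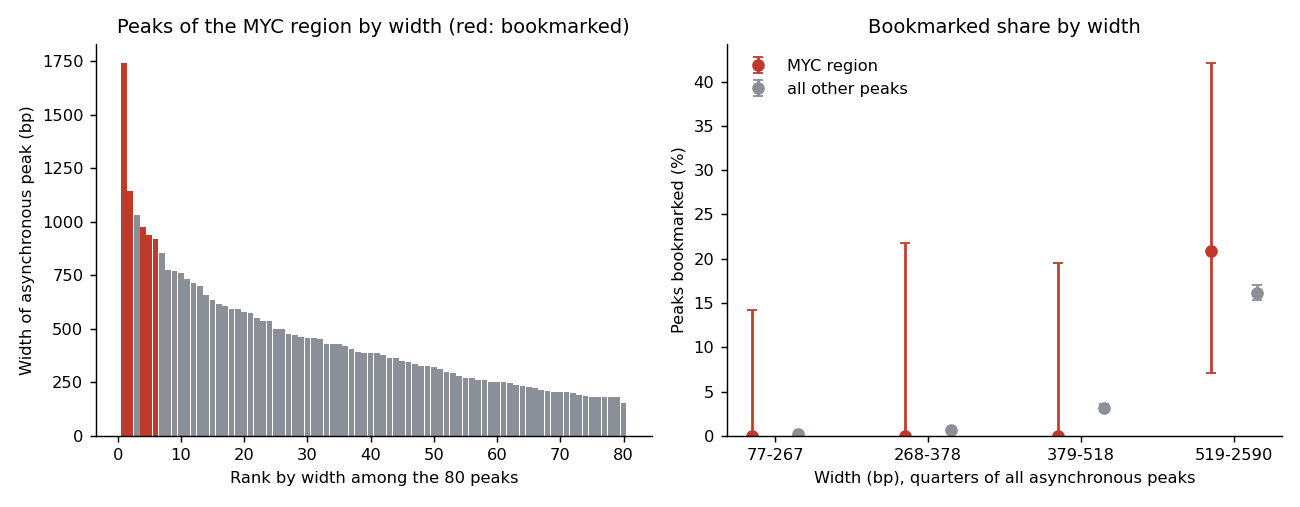
Left, width in bp of the 80 asynchronous peaks of the region in order of width, with the 5 bookmarked peaks in red. Right, percent of peaks bookmarked in 4 width classes cut at the quartiles of all asynchronous peaks, for the region (red) and all other peaks (grey), with 95% exact binomial intervals as bars. Bookmarked peaks of the region appear only in the widest class, at 20.8% against 16.2% elsewhere.

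Most of the region's peaks held GATA sites. WGATAR matched on either strand, without overlap of matches, in 72 of the 80 peaks (90%, 81.2% to 95.6%) and in 93.0% of the others, the difference of -2.98 percentage points having an interval of -11.5 to 1.87. In stretches of the same widths 5 kb to either side of the region's peaks, 49.4% held a match. The region's peaks held 6.63 matches per kb against 5.99 in the others, and a median of 2 per peak in both. Without the 2 peaks with most matches, the region held 5.81 per kb, so that its value above that of the others rested on these peaks. The 5 bookmarked peaks held 4 to 8 matches with a median of 7, and the asynchronous-only peaks 0 to 24 with a median of 2. Per kb of sequence the bookmarked peaks held 5.78 matches and the asynchronous-only peaks 6.79, or 5.81 without those 2, so that the higher number per bookmarked peak went with its greater width. The 2 peaks with most matches were not bookmarked. The peak at 1973 kb held 24 in 614 bp, and that at 592 kb held 11 in 324 bp, these being named after their values were seen.

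Within the bookmarked peaks, the mitotic intervals together held 20 WGATAR matches in 2025 bp (9.88 per kb), against 13 in the remaining 3689 bp (3.52 per kb). By number, most matches lay inside the mitotic interval in only 2 of the 5 peaks, those at 224 and 1957 kb. The other 3 held 8 of their 19 matches inside it, though per kb they held 8.02 inside and 3.89 outside. Matches per kb were higher inside than outside in each of the 5 peaks. At 1953 kb the values inside and outside were close, at 4.33 and 4.22 per kb. In the other bookmarked peaks of the genome the values were 7.70 and 2.81 per kb. Matches were also denser near the centre of the region's asynchronous peaks in general, at 9.19 per kb in the central 200 bp against 6.63 over whole peaks. Whether the mitotic intervals differ from peak centres was not tested. The mitotic intervals covered a median of 46.8% of the bookmarked peaks of the region and 45.2% of those elsewhere, and the mitotic peaks themselves had a median width of 429 bp here and 298 bp elsewhere. In all 5 peaks at least 2 matches lay within the mitotic interval.

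**Figure D5:**
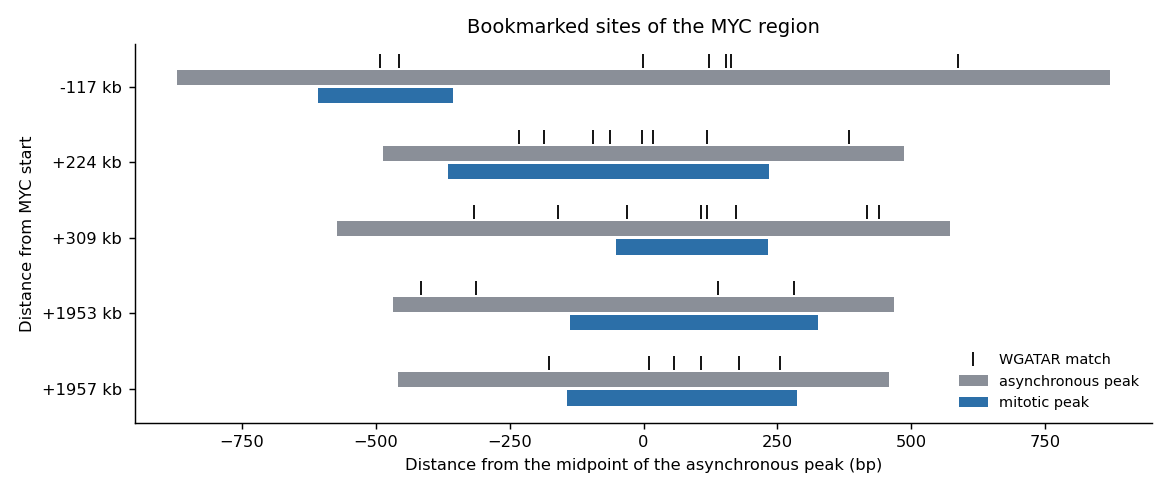
The 5 bookmarked sites, each with its asynchronous peak (grey), its mitotic peak (blue) and the WGATAR matches (black ticks), against distance in bp from the midpoint of the asynchronous peak, with the distance of the site from the MYC start at the left. At -117 kb the mitotic peak lies at the left of the asynchronous peak over 2 of 7 matches, and at 224 kb it covers 7 of 8.

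Consensus strings of other blood factors were found in a minority of the peaks, and over whole peaks the differences from the other peaks were within counting error. The RUNX string AACCACA was found in 10 of the region's 80 peaks and 13.6% of the others, and the ETS string AGGAAGT in 11.25% and 14.9%. The AP-1 string, TGA and TCA separated by C or G, was found in 13.75% and 13.0%, and the E-box CAGCTG, the kind bound by TAL1 with its partners, in 25% and 24.1%. The composite of an E-box part and a GATA site, CTG and GATAA separated by 8 bases, was found in 7.5% and 8.55%. The intervals of all these whole-peak differences included 0, and the narrowest, that of the composite, ran from -5.08 to 6.87 percentage points. The 6 peaks with the composite were all asynchronous only, as were 75 of the 80 peaks in all, so nothing is read from this. Of the 5 bookmarked peaks, 3 held the E-box string, 2 the ETS string, 1 the AP-1 string and 0 the RUNX string. Among the 75 asynchronous-only peaks, which were narrower, these numbers were 17, 7, 10 and 10 in turn. None of the 5 mitotic peaks held the E-box string, and nothing is read from counts this small. The strings were searched on both strands, and a match is not a measured site. GC content was alike, with medians of 44.8% in the region and 44.1% elsewhere.

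The other genes of the MYC network, which encode the partners and antagonists that share MAX or MLX, were set beside MYC. Of the 13 genes of this list, 9 were nearest to at least 1 asynchronous peak, against 49.8% of all protein-coding genes. A mitotic peak was nearest to 3 (MYC, MYCL and MXI1), against 6.67%. Within 10 kb of the gene body, 2 genes had a mitotic peak, MYCL and MXI1, and MYC had none. The list is short and was chosen with earlier results known, so nothing is read from these differences. MYC had 40 asynchronous and 3 mitotic peaks, and the closest of the 3 lay 117 kb from its nearest TSS. MYCL had 1 asynchronous peak, bookmarked, 8.72 kb from its TSS. MXI1, which encodes a MAX partner that opposes MYC, had 5 asynchronous peaks, and its mitotic peak lay 0.534 kb from its TSS. MAX had 5 asynchronous peaks, none bookmarked, and MLXIP 7, MGA 4, and MXD1, MNT and MLXIPL 1 each. MYCN, MXD3, MXD4 and MLX were nearest to no peak. Within 10 kb of the gene body, however, MXD4 had 1 asynchronous peak and MLX 2, while MYCN and MXD3 had none.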

How the data were processed

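The authors' deposited data were 1 list of peak positions in bp per GATA2 library, with chromosome, start and end and no other value. According to the study's methods and the submitters' processing notes, 75 nt single-end reads were aligned to hg38 with BWA 0.7.12, uniquely mapped reads were extended at the 3' end, peaks were called with MACS2 2.1.0 and Genrich 0.6.1, and ENCODE blacklist regions were removed. How the calls of the 2 programs were joined, their thresholds and the use of the inputs are not given in the sources used here. The 2 input libraries were not used here, and neither were reads, coverage, copy number or other factors.

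From these lists, peaks sharing at least 1 base with the region were taken, and positions were printed with the first base as 1. Gene models came from GENCODE release 44 and motif matches from the hg38 sequence. Peaks were placed by midpoint relative to MYC and PVT1. Widths have order-statistic intervals for the median, shares exact intervals and differences of shares Newcombe intervals, all at 95%. On simulated data, 400 of 400 planted overlaps and 1029 of 1029 planted GATA sites were recovered. Scripts ran under Python 3.11.15, with matplotlib 3.10.9, scipy 1.17.1, pandas 2.3.3 and numpy 2.4.6.

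The text names, by rule, the mitotic and bookmarked peaks, those at MYC or on a PVT1 exon, the 10 widest, those at the ends of the region, the largest groups of neighbours, the protein-coding genes and the MYC network list. The region, its members and all lists were chosen with earlier results of these data known. No sequence of the region is printed. Alternatives changed the membership, overlap and class rules, the width and background of the peaks compared, the motif interval, the gap and the gene assignment.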

Additional observations from a re-analysis of the deposited data

How the results depend on the processing

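Of 52 alternative values for 24 results, 7 moved, which means by over 1.5 times for a count or density, or outside the 95% interval of the reported value for a share or median. The interval of a share is wide here, so that 2 shares among the other 45 values also differ by over 1.5 times, and the difference in the share bookmarked between the region and the other peaks ranged from -0.769 to 2.26 percentage points, all within its interval. The shares are the share bookmarked at or above the median width, 11.9% in the region and 9.64% elsewhere, and the AP-1 string in the central 200 bp, 7.5% and 7.69%. With reciprocal overlap of at least 50%, only 1 bookmarked peak was left in the region, or 1.25%, as the mitotic intervals cover only 14.5% to 61.5% of their asynchronous peaks. The region's difference from the other peaks was -0.769 percentage points under this rule and 1.22 under the main rule, so the share fell elsewhere too. With 1 peak left, the sizes of the 2 falls cannot be compared. Coverage was alike, with medians of 46.8% in the region and 45.2% elsewhere. With midpoints within 200 bp 4 were left. Peaks at or above the median width numbered 13.965 per Mb, though their ratio to the genome was 2.57 against 2.46 for all peaks. With the span of the canonical MYC transcript, 1 peak was left at MYC. In the central 200 bp of the peaks, the ETS string was found in 2.5%, against 8.57% of the other peaks (difference -6.07 points, -7.90 to 0.106), and the E-box in 10%, against 14.8%. The density of WGATAR without the 2 peaks with most matches, an alternative chosen after seeing the data, was 5.81 per kb. With the nearest TSS of genes of every type, 1 network gene had a mitotic peak. The absence of a mitotic peak depends on depth, which is unknown. No paired analysis was possible because each condition has 1 library and no result comes from a test. No replicate could be left out for the same reason.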
